A study of Mus musculus with 4 samples.

Results

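The ribosomal protein genes of the cytosolic and the mitochondrial ribosome were followed in ILC87-Ik1-ER cells after 1 day of 4-hydroxytamoxifen (4OHT). Members were taken from the array annotation by symbol: *Rpl*, *Rps* and *Rplp* genes for the cytosolic ribosome, and *Mrpl* and *Mrps* genes for the mitochondrial ribosome, without pseudogene symbols and S6 kinase genes. This gave 58 cytosolic and 77 mitochondrial genes, 135 of the 19938 genes that have a probe set with exactly 1 gene symbol. For a gene with several such probe sets, that with the highest mean was used. A further 16 cytosolic symbols (*Rpl3*, *Rpl11*, *Rps24* and *Rps26* among them) and *Mrpl53* occurred only on probe sets that carry several symbols. They are not counted as members.

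The series holds 4 Affymetrix Mouse Gene ST 1.0 arrays, 2 for cells kept in 100 nM 4OHT and 2 for cells kept in its vehicle ethanol (EtOH), in both cases for 24 h. ILC87 is 1 cell line, grown from a thymic tumour of a mouse in which *Lck*-cre had deleted the floxed Ikaros gene, so the endogenous protein is missing in both groups. The labels give the strain as C57BL/6, whereas mice of this genotype are described in the methods as of mixed C57BL/6 and 129Sv origin. Both groups also carry the MigR1 retrovirus for Ik1-ER, the full-length Ikaros-1 isoform joined to the hormone-binding part of the oestrogen receptor, and were sorted for its GFP reporter. 4OHT activates this fusion, and no array holds 4OHT-treated cells without it, so that an effect of the drug alone cannot be told apart. The arrays of a group are numbered as samples 1 and 2. Whether they were separate cultures is not stated, and the p-values measure only how far these samples lie apart, possibly for technical reasons. In such bulk RNA, fewer cells of a type and less RNA per cell cannot be told apart.

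The values are log2 expression values from the RMA method, and a change is given as the difference of the 4OHT mean from the EtOH mean on that scale (log2 fold change). A gene was called higher or lower at a Benjamini-Hochberg adjusted p under 0.05 from limma, fitted over all 35556 probe sets. Over all genes 2.99% were called lower and 1.23% higher, 4.23% in all. The smallest called change was 0.47 on the log2 scale (1.38-fold), while the smallest two-sided p that an exact permutation test can give with 2 arrays in each group is 0.33. Of 8 T-cell marker genes, the 6 measured had mean values from 10.01 to 13.14, of which *Cd3d* fell (log2 fold change −0.94, limma adjusted p = 0.0172). The others did not pass and went both ways. *Cd3g*, *Cd3e* and *Zap70* had log2 fold changes of −0.49, −0.31 and −0.19, and *Cd247* and *Lat* had 0.24 and 0.27. The measured marker genes of B cells (5), myeloid cells (6) and erythroid cells (4) had no mean above 7.29, where the arrays had medians of 7.11 to 7.16. Among them *Lyz2* fell and *Itgam* rose (log2 fold changes −1.24 and 0.68). The part of such cells in the results below was not tested.

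Ribosomes consist of a small and a large subunit, built from ribosomal RNA and many proteins. In the cytosol these are the 40S and 60S subunits, whose proteins bear the letters S and L. The mRNAs of most cytosolic ribosomal proteins start with a tract of pyrimidines (the 5′ TOP), through which mTOR signalling controls their translation, and growing lymphoid cells hold large amounts of them. The mitochondrial ribosome, with 28S and 39S subunits, makes the few proteins encoded by mitochondrial DNA, all of which belong to the respiratory chain or the ATP synthase. Its proteins are encoded in the nucleus and imported. Many have bacterial counterparts, while others are found only in mitochondria.

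The mitochondrial ribosomal protein genes had a lower median log2 fold change than the cytosolic ones. Few genes passed the test in either set, and the difference between the sets, which lie at different levels, was not tested. Of the 77 mitochondrial genes 3 fell (*Mrpl24*, *Mrpl52* and *Mrps34*, 3.90% beside the 2.99% of all genes), none rose and 74 did not pass (4.23% of all genes were called in either direction). Of the 58 cytosolic genes none was called in either direction by limma, and 5 had an unadjusted p under 0.05, 4 of them lower and 1 higher (11.7% and 8.74% of all genes). Of the mitochondrial genes 13 were lower (16.9%) and 1 higher at this unadjusted p. Much of the mitochondrial set lies at mean log2 values from 9.31 to 10.51, where 2883 other genes were measured. Of these other genes 141 were called lower and 61 higher, and 604 were lower and 330 higher at the unadjusted p. The median log2 fold change was −0.14 for the mitochondrial set and −0.06 for the cytosolic set, beside 0.03 for all genes. Negative log2 fold changes were found for 63 of 77 mitochondrial genes (81.8%) and 52 of 58 cytosolic genes (89.7%), beside 42.3% of all genes. Among the 2883 other genes this share was 59.6%. Among 728 other genes at the level of much of the cytosolic set (11.48 to 13.05) it was 58.0%. With subunits assigned by the letter of the symbol, 40S, 60S, 28S and 39S genes all had medians below 0, at −0.06 for 21 genes, −0.07 for 37 genes, −0.14 for 29 genes and −0.14 for 48 genes. The genes of a set come from the same 4 arrays and are no replicates of the treatment.

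**Figure D1:**
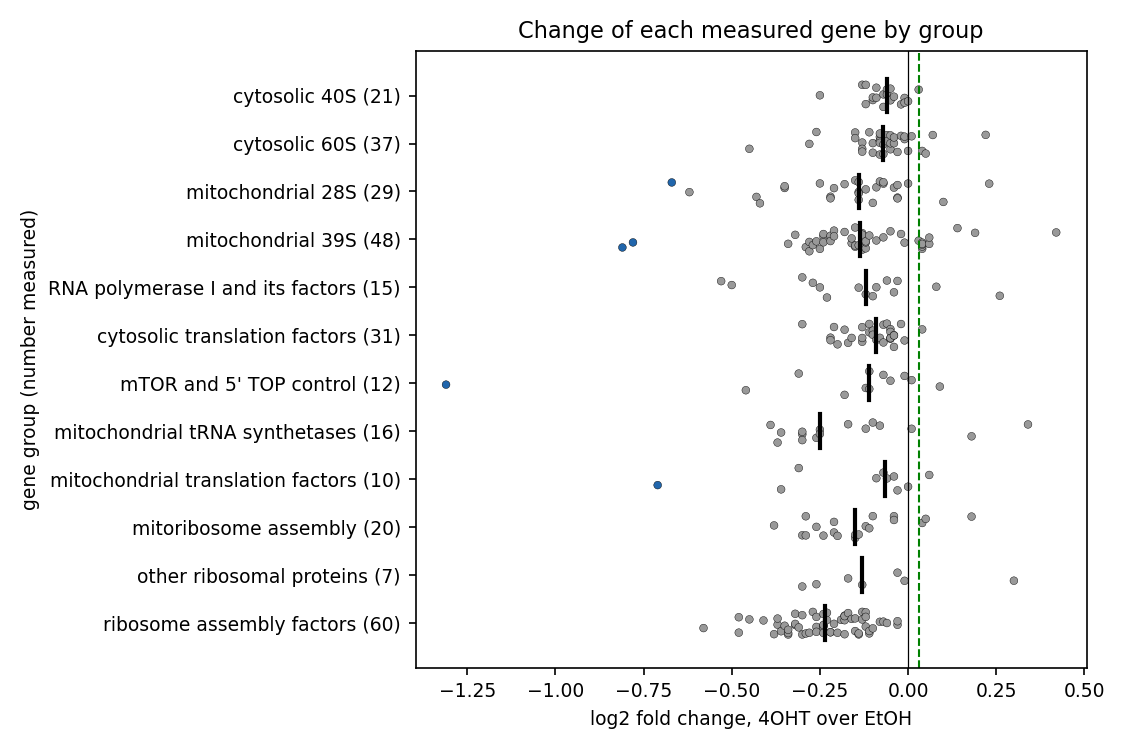
Log2 fold change (4OHT over EtOH, x axis) of every measured gene, by ribosomal subunit and by related gene list (y axis, number measured in brackets). Points are genes, blue if called lower and grey if not called, black bars are medians, and the dashed green line is the median of all genes (0.03). The medians of the 4 subunits lie between −0.14 and −0.06, and 3 mitochondrial ribosomal protein genes are called. In the related lists *Deptor* and *Mtif2* are called.

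*Mrpl24* encodes a 39S protein whose bacterial counterpart starts the assembly of the large subunit. Its values were 9.64 and 9.56 on the EtOH arrays and 8.81 and 8.78 on the 4OHT arrays. The groups were far apart, and the arrays of each lay close together. The level was 1.75-fold lower with 4OHT (log2 fold change −0.81, standard error 0.07, limma adjusted p = 0.0188), the largest decrease of the 135 genes.

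*Mrpl52* encodes a 39S protein found only in mitochondria. It had values of 10.31 and 10.44 with EtOH and of 9.63 and 9.56 with 4OHT, again without overlap. This was a 1.71-fold lower level (log2 fold change −0.78, standard error 0.08, limma adjusted p = 0.0253). *Mrps34* encodes a 28S protein without a bacterial counterpart, on which the stability of that subunit depends in the mouse. Its values were 8.98 and 9.11 with EtOH and 8.30 and 8.45 with 4OHT, which is 1.59-fold lower (log2 fold change −0.67, standard error 0.10, limma adjusted p = 0.0451). *Mrps34* was thus close to the threshold, and a further quantile normalization gave it a limma adjusted p of 0.0587. The 3 genes had adjusted p values of 0.0615 to 0.224 in the fits without any 1 of the 4 arrays, which have 1 residual degree of freedom. Their log2 fold changes in these fits were between −0.85 and −0.59.

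*Mrps25*, a further 28S protein gene of mitochondria alone, had values of 9.52 and 9.31 with EtOH and 8.69 and 8.89 with 4OHT. Its log2 fold change of −0.62 (standard error 0.12) did not pass the test (limma adjusted p = 0.0762). *Mrps27*, whose product binds RNA and belongs to the 28S subunit, had values of 9.29 and 9.12 with EtOH and 8.68 and 8.88 with 4OHT (log2 fold change −0.43, limma adjusted p = 0.141). Both genes, like the 3 called ones, were without overlap between the groups. At the other end stood *Mrpl9*, which encodes the counterpart of bacterial L9, with values of 9.45 and 9.27 in EtOH-treated and 9.64 and 9.93 in 4OHT-treated cells. Both 4OHT arrays of *Mrpl9* lay above both EtOH arrays (log2 fold change 0.42, standard error 0.13, limma adjusted p = 0.199). *Mrps26*, *Mrpl18*, *Mrpl33* and *Mrps23* followed with log2 fold changes of 0.23, 0.19, 0.14 and 0.10, none of them past the test. Of these *Mrpl18* had the widest spread, with 10.63 and 10.28 on the EtOH arrays and 10.49 and 10.80 on the 4OHT arrays, so that its groups overlapped.

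**Figure D2:**
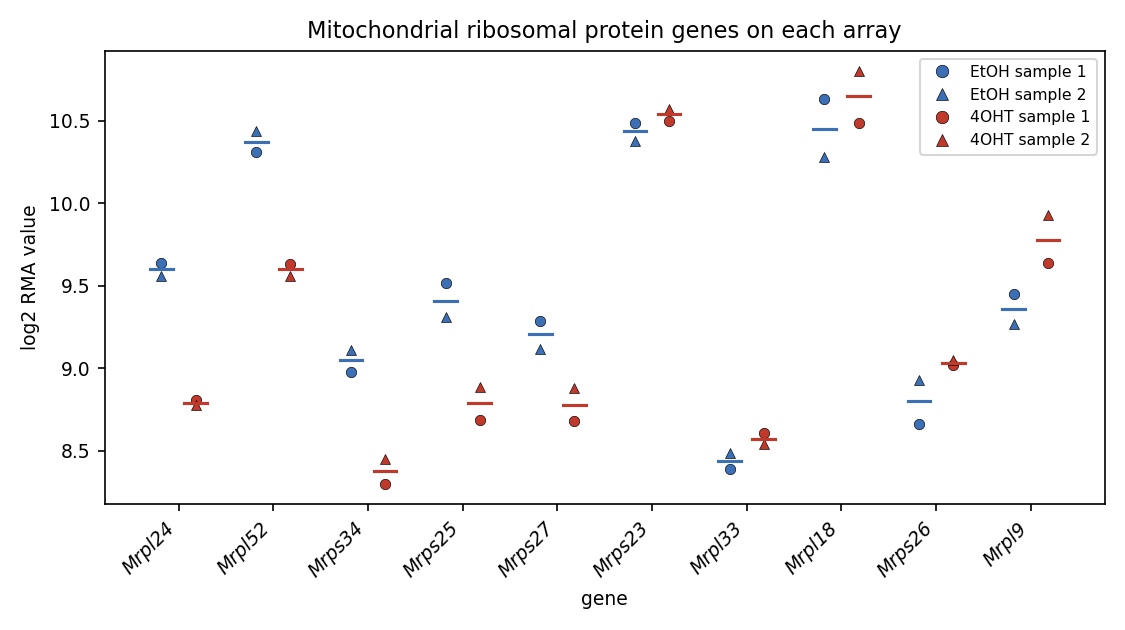
Log2 RMA values (y axis) of the 5 mitochondrial ribosomal protein genes with the most negative and the 5 with the most positive log2 fold change (x axis) on each array. Blue points are EtOH and red points 4OHT arrays, circles are samples 1, triangles samples 2 and short lines group means; *Mrpl24*, *Mrpl52* and *Mrps34* were called lower, while the groups of *Mrpl18* overlap.

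The genes of single functional parts of the mitochondrial ribosome did not pass the test. *Mrpl10* and *Mrpl12* form the stalk that recruits the factors of translation. They had log2 fold changes of −0.13 and −0.12, with 95% intervals from −0.33 to 0.07 and from −0.33 to 0.09 (limma). Mammals have several genes for the mitochondrial S18 protein, and the product of *Mrps18a*, counted here with the 28S genes by its symbol, sits in the large subunit. *Mrps18a*, *Mrps18b* and *Mrps18c* had log2 fold changes of −0.15, −0.14 and −0.07, and the groups of *Mrps18c* overlapped. In all, both 4OHT arrays lay below both EtOH arrays for 43 of the 77 mitochondrial genes and above them for 5. The shares of all genes were 24.5% and 32.1%. Of the 2883 other genes with mean log2 values from 9.31 to 10.51, 1147 (39.8%) lay below and 710 above in this way. For 29 mitochondrial genes the groups overlapped. None of the 5 measured protein-coding neighbours of the called genes in the RefSeq gene order was called: *Hdgf* and *Rrnad1* beside *Mrpl24* had log2 fold changes of −0.12 and −0.02, *Slc7a7* and *Mmp14* beside *Mrpl52* −0.24 and −0.25, and *Nme3* beside *Mrps34* −0.06. *Eme2*, the other neighbour of *Mrps34*, has no probe set with 1 symbol.

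Promoters from both ends of the mitochondrial set are shown, those of the called genes *Mrpl24* and *Mrpl52* and that of *Mrpl9*, which did not pass the test. RefSeq windows of 250 bases before to 50 bases after the annotated start (GRCm38.p6) were at hand for 68 of the 77 mitochondrial genes (74 windows) and 46 of the 58 cytosolic genes (55 windows), *Mrps34* not among them. The stretches run 5′ to 3′ from 150 bases before to 30 bases after the start, on the plus strand of chr3:87919394-87919573, chr14:54426759-54426938 and chr3:94443186-94443365. Capitals mark 3 motifs on either strand, namely CCGGAAG of ETS factors, GCGCATG of NRF1 and the Ikaros core TGGGAA.
Mrpl24: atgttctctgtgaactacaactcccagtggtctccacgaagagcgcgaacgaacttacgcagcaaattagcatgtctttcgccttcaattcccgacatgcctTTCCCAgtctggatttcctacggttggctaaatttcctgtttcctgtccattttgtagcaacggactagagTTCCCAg
Mrpl52: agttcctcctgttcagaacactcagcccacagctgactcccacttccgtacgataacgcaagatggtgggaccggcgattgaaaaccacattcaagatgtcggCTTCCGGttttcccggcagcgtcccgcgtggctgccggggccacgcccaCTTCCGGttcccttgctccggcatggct
Mrpl9: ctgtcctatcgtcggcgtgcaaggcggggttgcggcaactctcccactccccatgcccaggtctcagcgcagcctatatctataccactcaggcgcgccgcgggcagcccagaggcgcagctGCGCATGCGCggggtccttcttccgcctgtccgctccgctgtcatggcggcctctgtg

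The 3 stretches thus differ in which of the 3 marked motifs they hold. The paper found AGGAA enriched at Ikaros peaks and also counted GGAA and GGGA. These shorter forms were not searched on their own, and both the ETS motif and the Ikaros core hold GGAA. A stretch without the Ikaros core is therefore not shown to lack Ikaros motifs. Over whole windows the ETS motif stood in 33.8% of the mitochondrial and 32.7% of the cytosolic windows, beside 8.86% of all 32851 windows. The NRF1 motif stood in 10.8%, 16.4% and 3.91% of these, and the YY1 motif GATGGCG in 10.8% of the mitochondrial, 3.64% of the cytosolic and 3.49% of all windows. The E-box CACGTG, which MYC binds, was found in 9.46% of the mitochondrial and 12.7% of the cytosolic windows (7.15% of all). The short Ikaros core was present in 27.0% and 16.4% of them, beside 25.6% of all windows. No motif searched is contained in another, both strands were read, and a match is not a bound site. Windows of the same gene were counted apart, so these are not shares of genes. *Mrpl2* gave several of the 7 mitochondrial E-box windows, *Rpl34* and *Rpl19* several of the 7 cytosolic ones, and *Rpl34* alone the 2 cytosolic YY1 windows.

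The cytosolic ribosomal protein genes had small changes, as did most other genes at their level. Of 58 genes 54 had a log2 fold change of less than 0.25 in size, and the 95% interval from limma lay within −0.5 to 0.5 for 55. Over all 19938 genes these counts were 16216 and 15958. Among 728 other genes with mean log2 values from 11.48 to 13.05, where much of the cytosolic set lies, both counts were 629. Both 4OHT arrays lay below both EtOH arrays for 26 of the 58 genes and above them for 3 (24.5% and 32.1% of all genes), and the groups overlapped for 29. Of the 728 other genes 246 lay below and 173 above in this way. The changes of the cytosolic genes are below the smallest called on these arrays. The largest was that of *Rpl12*, which encodes a protein at the base of the stalk of the 60S subunit. Its values were 9.05 and 8.74 with EtOH and 8.40 and 8.48 with 4OHT (log2 fold change −0.45, standard error 0.12, limma adjusted p = 0.158). The groups did not overlap, but the EtOH arrays differed more from each other than the 4OHT arrays did.

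*Rpl14*, a 60S protein gene, had values of 10.10 and 9.98 with EtOH and 9.68 and 9.85 with 4OHT (log2 fold change −0.28, limma adjusted p = 0.240). *Rpl22*, which encodes an RNA-binding 60S protein that αβ T cells of the mouse need for their development, had 8.82 and 8.68 with EtOH and 8.41 and 8.57 with 4OHT (log2 fold change −0.26, limma adjusted p = 0.266). *Rps14*, a 40S protein gene whose human counterpart is lost in the 5q− syndrome, had 12.41 and 12.39 with EtOH and 12.07 and 12.23 with 4OHT (log2 fold change −0.25, limma adjusted p = 0.234). None of these genes passed the test, though their 4OHT values lay below their EtOH values on every array. *Rpl27a*, a 60S protein gene, was next, at a log2 fold change of −0.15.

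The P stalk, which recruits elongation factors to the cytosolic ribosome, is formed by *Rplp0*, *Rplp1* and *Rplp2*. Their log2 fold changes were −0.03, −0.04 and 0.01, and the 95% intervals (limma) reached from −0.21 to 0.16, from −0.31 to 0.22 and from −0.19 to 0.21. *Rplp2* was dim on its only probe set (mean 7.95). *Rpl5*, a protein of the 5S ribonucleoprotein that binds MDM2 when assembly is disturbed, had values of 13.00 and 12.93 with EtOH and 12.97 and 12.94 with 4OHT (95% interval of the log2 fold change −0.21 to 0.18). *Rps6*, the substrate of S6 kinase, had 13.66 and 13.63 with EtOH and 13.72 and 13.56 with 4OHT (−0.23 to 0.22). Neither gene had groups that lay apart. The 6 genes listed for proteins lining or surrounding the peptide exit tunnel had log2 fold changes from −0.26 to 0.05. The lowest was that of *Rpl22*, and *Rpl4*, *Rpl19*, *Rpl23a*, *Rpl26* and *Rpl38* had −0.05, −0.06, −0.07, 0.05 and −0.01. *Rps7*, *Rps10* and *Rps19*, altered in human Diamond-Blackfan anaemia, had −0.12, −0.07 and −0.10, without passing the test.

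The paralogues of cytosolic ribosomal proteins were mostly dim. *Rpl3l*, the muscle form of *Rpl3*, had values of 5.88 and 5.81 with EtOH and 6.12 and 6.02 with 4OHT (log2 fold change 0.22, limma adjusted p = 0.253), the largest positive value of the cytosolic set. The testis form *Rpl39l* had values from 4.41 to 4.52, and *Rpl10l* from 7.09 to 7.37. *Rps4l*, a transcribed pseudogene in the RefSeq annotation, had values from 7.52 to 7.63. These levels lie near or below the array medians and are not shown to be above background. *Rps27l* was bright, with 12.21 and 12.18 on the EtOH arrays and 12.16 and 12.29 on the 4OHT arrays (log2 fold change 0.03). *Rpl41* and *Rpl26* had log2 fold changes of 0.04 and 0.05.

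The starts of the genes were searched for the pyrimidine tract as well, which most cytosolic windows did not hold. A cytosine followed by at least 4 pyrimidines stood exactly at the annotated start in 18.2% of the cytosolic windows, 0% of the mitochondrial windows and 2.51% of all windows. Within 5 bases of the start it stood in 36.4%, 23.0% and 18.3% of them, so that the mitochondrial share was near that of all windows. RefSeq starts can be off by some bases, which these shares do not correct. To make the tract visible, 5 of the 10 cytosolic windows with a tract exactly at the start are shown, out of 55 windows. The stretches run from 5 bases before to 15 bases after the start, with the tract in capitals. They stem from chr4:86857353-86857372 (minus strand), chr7:4792960-4792979 (plus), chr17:27635230-27635249 (minus), chr17:33955651-33955670 (minus) and chr9:120571512-120571531 (plus) of GRCm38.p6.
Rps6: cgggcCTCTTTTTCgtgacg
Rpl28: tgtctCTCTTTCCgtctccg
Rps10: cgcccCTTCCTTTCCagcct
Rps18: ccgctCTCTCTTCCacagga
Rpl14: tctctCTTCTCgctgagcgc

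Several probe sets of a gene mostly gave like values. The 58 cytosolic genes have 210 probe sets with 1 symbol, up to 14 for a gene, and 38 genes have more than 1. These genes have many processed pseudogenes of near-identical sequence, so that a value cannot be assigned to the gene alone. None of the 210 was called, and their median log2 fold change was −0.07. The 14 probe sets of *Rps12* lay between −0.13 and −0.08, the 13 of *Rpl23a* between −0.10 and −0.04, and the 8 of *Rps6* between −0.02 and 0.00. Some genes varied more. The 2 probe sets of *Rpl23* had −0.34 and −0.11, of which the second was used, and the 3 of *Rps15* lay between −0.06 and 0.04. The 152 cytosolic probe sets that were not used had a median of −0.08. The 88 probe sets of the 16 symbols found only beside other symbols had log2 fold changes from −0.34 to 0.00, and none was called. Of the 77 mitochondrial genes only 8 have more than 1 such probe set, and the called genes have 1 each.

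The level of a gene moved with its change. Outside the ribosomal protein genes, the median log2 fold change was 0.05 for 5169 genes with a mean log2 value under 6 and 0.08 for 6520 genes between 6 and 8, but −0.06 for 2520 genes between 9 and 10 and −0.02 for 378 genes above 12. The quartiles of these other genes were −0.22 and 0.08 between 9 and 10, and −0.09 and 0.06 above 12. The mitochondrial set had a median level of 9.98, and its medians were −0.15 for 26 genes between 9 and 10 and −0.13 for 26 genes between 10 and 11, where that of 1959 other genes was −0.04. The cytosolic set had a median level of 12.57, and its 41 genes above 12 had a median of −0.06. The medians of both sets thus lay below those of other genes in these ranges. The part of the level in these medians was not tested.

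**Figure D3:**
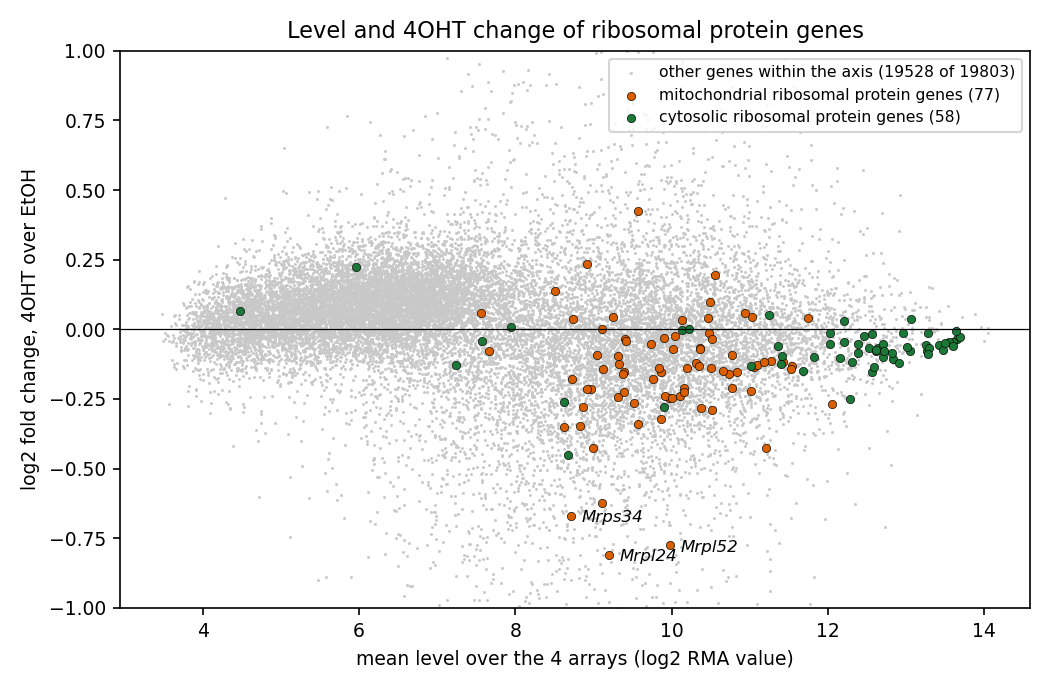
Log2 fold change (4OHT over EtOH, y axis, shown from −1 to 1) against the mean level over the 4 arrays (log2 RMA value, x axis). Grey points are other genes, orange points the 77 mitochondrial and green points the 58 cytosolic ribosomal protein genes; most members lie below 0, as do more than 57% of other genes at levels above 8, and the 3 called genes are named.

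The 4OHT arrays contributed unequally. The array of sample 1 was the lowest of the 4 for 54 of 77 mitochondrial genes (70.1%) and 40 of 58 cytosolic genes (69.0%). It was the lowest for 26.3% of all genes. For other genes with mean log2 values from 9.31 to 10.51 this share was 38.7%, and from 11.48 to 13.05 it was 35.6%. Against the mean of the EtOH arrays, the median difference of mitochondrial genes was −0.20 on the array of 4OHT sample 1 and −0.07 on that of sample 2. That of cytosolic genes was −0.10 and −0.04. The array of 4OHT sample 2 lay below both EtOH arrays for 44 mitochondrial genes (57.1%) and 33 cytosolic genes (56.9%), beside 31.4% of all genes. *Mrpl24* and *Mrpl52* were instead lowest on the array of 4OHT sample 2 (8.78 and 9.56). Without the array of 4OHT sample 1 the median log2 fold change was −0.07 for the mitochondrial and −0.04 for the cytosolic set.

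**Figure D4:**
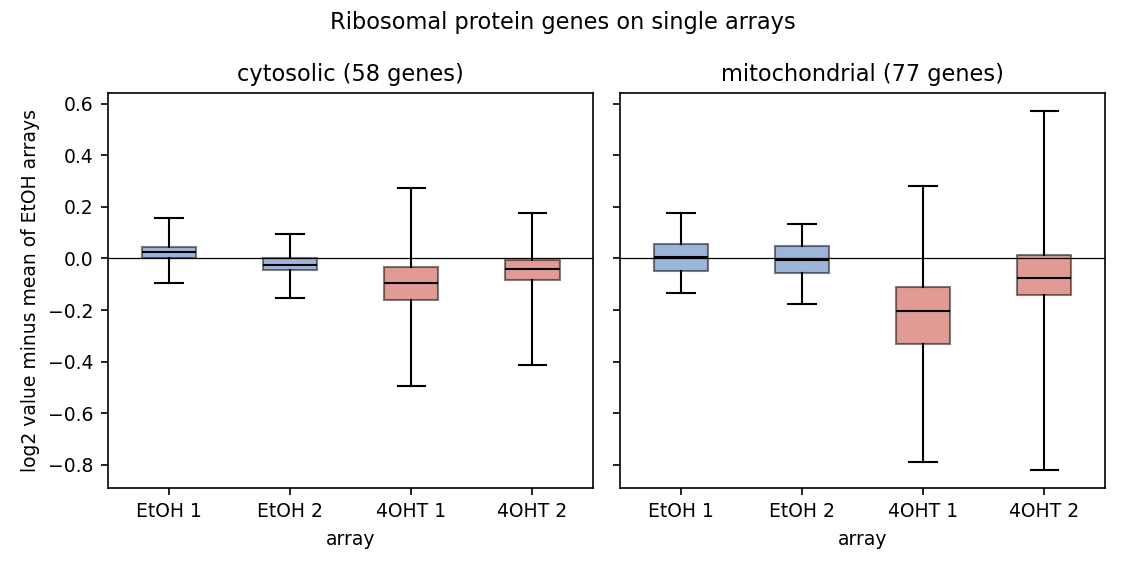
Log2 value of each ribosomal protein gene minus its mean over the EtOH arrays (y axis) on each of the 4 arrays (x axis), for 58 cytosolic (left) and 77 mitochondrial genes (right). Boxes span the quartiles, lines are medians and whiskers reach the lowest and highest gene; the medians on the arrays of 4OHT sample 1 (−0.10 and −0.20) lie further from 0 than those of sample 2 (−0.04 and −0.07).

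Genes that build, regulate or work with these ribosomes were compared by lists chosen for their roles. Of 60 factors of ribosome assembly in the nucleolus and cytosol none was called by limma, while 27 had an unadjusted p under 0.05, all of them lower (11.7% of all genes were lower and 8.74% higher at this p). All 60 had a negative log2 fold change (42.3% of all genes), from −0.58 to −0.03 with a median of −0.23. For 50 of them both 4OHT arrays lay below both EtOH arrays (24.5% of all genes). The median level of these factors was 10.27. Of 2883 other genes with levels from 9.31 to 10.51, 59.6% had a negative log2 fold change. Of the same 2883 genes 39.8% lay below in this way and 604 were lower at an unadjusted p under 0.05. The lowest adjusted p of the list was 0.0526 (*Rrp1b*, log2 fold change −0.48). RNA polymerase I and its factors had a median of −0.12 over 15 genes, and cytosolic translation factors −0.09 over 31 genes, none of them called. At an unadjusted p under 0.05 the first of these lists held 6 lower genes and 1 higher gene, and the second 2 lower genes, beside 11.7% lower and 8.74% higher of all genes.

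Of 12 genes of mTOR signalling and 5′ TOP translation, *Deptor*, which encodes an inhibitor of mTOR, fell. Its values were 9.21 and 9.25 with EtOH and 7.91 and 7.93 with 4OHT (log2 fold change −1.31, standard error 0.07, limma adjusted p = 0.00868). Without 1 of the arrays the limma adjusted p was 0.0365 to 0.133, and the call was lost without EtOH sample 1 (0.112) or EtOH sample 2 (0.133). The other 11 did not pass, and the median of the list was −0.11. Of 10 mitochondrial translation factors *Mtif2*, the initiation factor that brings the first tRNA to the mitochondrial ribosome, fell from a mean of 9.01 with EtOH to 8.25 and 8.36 on the 4OHT arrays (log2 fold change −0.71, standard error 0.08, limma adjusted p = 0.0280), with a list median of −0.06. This call was lost without any 1 of the arrays (limma adjusted p 0.0815 to 0.184). No gene was called among 16 mitochondrial aminoacyl-tRNA synthetases (median −0.25, 8 lower and 1 higher at an unadjusted p under 0.05) and 20 genes of mitoribosome assembly and mitochondrial transcription (median −0.15, 6 lower). The 7 measured ribosomal protein genes with other names, such as *Rpsa* (−0.03), *Fau* (−0.01) and *Dap3* (0.30), were not called, and 2 lower and 1 higher had an unadjusted p under 0.05. The shares of all genes at this p were 11.7% lower and 8.74% higher. Over all 171 genes of these lists 2 were called lower and none higher, beside 2.99% and 1.23% of all genes.

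The number of calls depended on the probe sets in the fit. Over the 21789 probe sets with 1 gene symbol alone, limma estimated 8.44 prior degrees of freedom instead of 2.66, and 8.72% of all genes were called lower and 5.03% higher. Then 9 mitochondrial genes were lower: to the 3 above were added *Mrps25* (adjusted p = 0.00179), *Mrps15* (0.00512), *Mrps27* (0.0146), *Mrps17* (0.0180), *Mrpl38* (0.0256) and *Mrpl19* (0.0376). *Mrpl9* was higher (adjusted p = 0.0259) and *Rpl12* was the only cytosolic gene called (0.0155). Of the ribosome assembly factors 17 were lower and none higher in this fit.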

How the data were processed

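Expression of 35556 probe sets on 4 arrays was deposited by the authors as log2 values (150 ng of total RNA each). Expression Console 1.1 from Affymetrix and the RMA method are given in the submitters' processing notes. RMA removes background, makes the arrays' distributions alike and summarises probes, so that a change shared by most genes cannot be seen and dim differences are compressed. A genome build was not given in the sources used here. Values carry no detection calls, and the small number of arrays limits the precision. From them, 4OHT and EtOH were compared with limma 3.58.1 in R 4.3.3 (lmFit, eBayes, two-sided, no filter, no block; 2 residual degrees of freedom). Symbols come from the array annotation, and all 135 members matched RefSeq by Entrez number.

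The genes named are, in each set, the called genes, the 5 largest changes in each direction and members listed by role, and up to 4 called genes of each related list. *Rrp1b*, the genes called only over probe sets with 1 symbol, neighbours of called genes and some examples were chosen after their values were seen. The motif letters of NRF1 and YY1 were shortened after longer forms had been searched, which had smaller shares in every set of windows. The members and lists were chosen with earlier results of these data known. The test was repeated with the sample number as a block, with an intensity trend, over probe sets with 1 symbol or a mean of at least 6, after a further quantile normalization or with array medians set equal, on means over the probe sets of a gene, without each array in turn, and at an adjusted p under 0.01 or 0.1. The procedure was tested on simulated data of 35556 probe sets, 200 of them changed, with noise drawn independently for each value. It called 129 probe sets, 9 of them falsely. Shared effects of an array were not simulated.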

Additional observations from a re-analysis of the deposited data

How the results depend on the processing

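The calls are limited by 2 arrays a group, and no array signal could be set against background. None of the 41 named genes that was called changed direction under any alternative run. The sample numbers are not known to pair the cultures, and same-numbered arrays deviated in opposite directions (r = −0.134 over 35556 probe sets, which are not independent). With the replicate block, 0 mitochondrial genes were called lower, 25 genes lower and 5 higher over all genes, and 0 genes of the related lists. With crossed numbers, a choice made after seeing the data, 2 mitochondrial and 0 cytosolic genes were called.

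Over probe sets with 1 gene symbol, 1 cytosolic gene was lower, 9 mitochondrial genes were lower and 1 higher, 1739 genes were lower and 1002 higher over all genes, and 35 genes of the related lists were called (2 before). These last were 4 with equal array medians, 5 with an intensity trend and 6 with a minimum mean of 6. The cytosolic median log2 fold change was −0.09 with equal array medians and −0.04 after quantile normalization. The mitochondrial median (−0.14) was −0.16 and −0.09 in these, and −0.20 to −0.07 with each array left out. At an adjusted p under 0.01 the calls were 0 mitochondrial genes, 59 lower and 14 higher over all genes and 1 of the related lists. Under 0.1 they were 5, 1076, 502 and 13. With an intensity trend or a minimum mean of 6, *Mrps15* was also called. Leaving out each array in turn gave 0 mitochondrial genes, 0 to 178 genes lower and 0 to 63 higher over all genes (0 in both without EtOH sample 1 or 2), 0 to 1 genes of the related lists and a cytosolic median of −0.10 to −0.04. The cause was not tested.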
